A study of Mus musculus domesticus and Mus musculus molossinus with 8 samples.

Results

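Cytochrome P450 family 4 (Cyp4) encodes fatty acid omega-hydroxylases, and 9 of its genes were followed among the 23284 genes of the tables: Cyp4a10, Cyp4a12a, Cyp4a12b, Cyp4a14, Cyp4a32, Cyp4b1, Cyp4f13, Cyp4f14 and Cyp4v3. They were chosen by symbol. The tables held 20 Cyp4 genes and pseudogenes in all, and of the 11 others only Cyp4f15 reached 10 FPKM in a liver (FPKM, fragments per kilobase of transcript, scaled to the mapped fragments of a library, so a level per transcript length). Polyadenylated RNA came from 4 mice aged 8 weeks: an MSM/Ms (MSM) mouse and a C57BL/6 (B6) mouse given 1.5 µg of MegaFasL into the peritoneum, and an untreated mouse of each strain. MSM is a wild-derived Japanese inbred strain, B6 is a classical laboratory strain from which the mm10 reference was built, and MegaFasL is an oligomerised form of Fas ligand, which triggers apoptosis through the receptor Fas. Each mouse gave 1 liver and 1 thymus library, so each of the 8 combinations is 1 library and none was replicated. The sources used here do not give the sex of the mice or the time from injection to tissue collection.

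Family 4 enzymes of the endoplasmic reticulum put a hydroxyl group on the terminal (omega) carbon of fatty acids and of lipid mediators such as arachidonic acid and leukotriene B4. The omega-hydroxy acid is then oxidised to a dicarboxylic acid, which peroxisomes shorten. In mouse liver the Cyp4a genes are known as targets of the fatty acid sensor PPAR-alpha, and several of them differ between the sexes: Cyp4a12a and Cyp4a12b are known as male-biased, Cyp4a14 as female-biased.

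The members share the stretch around the cysteine that holds the heme iron, which is shown because it marks all 9 as P450 enzymes and shows how close the Cyp4a genes are. Each line gives 60 coding bases, 5′ to 3′, from GENCODE M21 transcripts (mm10), with the cysteine codon in capitals.
Cyp4a10: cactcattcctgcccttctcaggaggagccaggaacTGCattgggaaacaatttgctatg
Cyp4a12a: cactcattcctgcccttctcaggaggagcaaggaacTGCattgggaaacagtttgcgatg
Cyp4a14: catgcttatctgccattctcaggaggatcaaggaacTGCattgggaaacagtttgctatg
Cyp4b1: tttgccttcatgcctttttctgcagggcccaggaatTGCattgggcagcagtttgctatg
Cyp4f13: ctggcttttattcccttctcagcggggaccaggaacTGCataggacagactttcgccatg
Cyp4f14: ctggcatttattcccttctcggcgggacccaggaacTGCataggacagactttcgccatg
Cyp4v3: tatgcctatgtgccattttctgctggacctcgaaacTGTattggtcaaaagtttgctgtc
Cyp4a32 carries the same 60 bases as Cyp4a10, and Cyp4a12b the same as Cyp4a12a.

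6 members lie with Cyp4a31 within 348.7 kb of chromosome 4 (mm10, GENCODE M21): Cyp4a12a (chr4:115299046-115332815, plus strand), Cyp4a12b (chr4:115411624-115439034, plus), Cyp4a14 (chr4:115486200-115496142, minus), Cyp4a10 (chr4:115518264-115533649, plus), Cyp4a32 (chr4:115600969-115621602, plus) and Cyp4b1 (chr4:115624725-115647723, minus). Cyp4f14 (chr17:32905070-32917342, minus) and Cyp4f13 (chr17:32924688-32947402, minus) are neighbours on chromosome 17, and Cyp4v3 (chr8:45304944-45333216, minus) stands alone on chromosome 8. Over their coding sequence Cyp4a12a and Cyp4a12b were 98.49% identical, with 23 differing bases of 1524 and an unbroken identical run of 342 bases. The lines below give coding bases 661 to 750 of both, where 7 of the differing bases lie close together. Capitals mark the bases that differ.
Cyp4a12a: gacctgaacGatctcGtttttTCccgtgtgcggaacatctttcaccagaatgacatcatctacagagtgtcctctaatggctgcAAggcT
Cyp4a12b: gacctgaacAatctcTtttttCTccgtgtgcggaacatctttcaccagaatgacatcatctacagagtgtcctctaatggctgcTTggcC
Cyp4a10 and Cyp4a32 were 97.18% identical, and Cyp4a31 was 96.59% identical to Cyp4a10. Coding bases 190 to 279 of these genes hold 13 positions, in capitals, at which not all 3 genes have the same base.
Cyp4a10: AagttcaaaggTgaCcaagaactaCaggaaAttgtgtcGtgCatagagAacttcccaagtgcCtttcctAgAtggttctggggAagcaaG
Cyp4a31: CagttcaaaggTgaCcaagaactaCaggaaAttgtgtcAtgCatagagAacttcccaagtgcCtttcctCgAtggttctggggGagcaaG
Cyp4a32: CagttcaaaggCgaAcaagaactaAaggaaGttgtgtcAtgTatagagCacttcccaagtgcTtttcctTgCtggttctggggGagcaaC
Such identity limits how well reads can be assigned. Of all 50-base windows, 48.9% of Cyp4a12a and 49.4% of Cyp4a12b occurred in the other gene, 46.8% of Cyp4a32 occurred in Cyp4a10 or Cyp4a31, and 30.5% of Cyp4a10 occurred in Cyp4a31 or Cyp4a32. For Cyp4b1 the share was 10.3%, with its pseudogenes, and for Cyp4a14 0.245%. It was 2.70% for Cyp4f13, 2.72% for Cyp4f14 and 0% for Cyp4v3. The split between Cyp4a12a and Cyp4a12b, and that among Cyp4a10, Cyp4a31 and Cyp4a32, is therefore uncertain, and sums are given beside it.

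**Figure D1:**
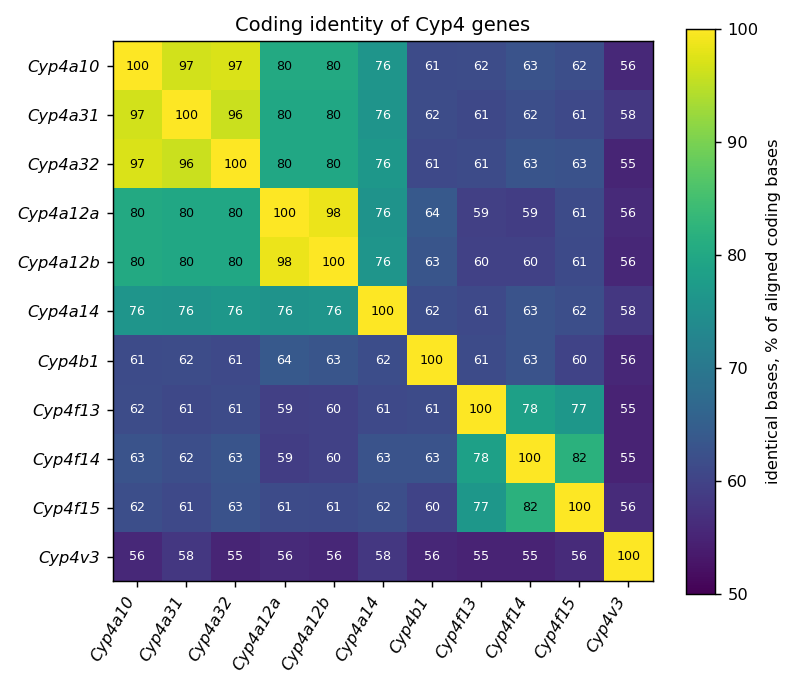
Identity of the coding sequences of the 9 Cyp4 members, Cyp4a31 and Cyp4f15, as the percentage of aligned bases that are identical (colour and printed value, rounded to whole percent). Cyp4a12a and Cyp4a12b share 98.49% and Cyp4a10 and Cyp4a32 97.18%, while Cyp4a14 shares 75.74% to 76.39% with the other Cyp4a genes and Cyp4v3 at most 58.17% with any gene.

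By an estimate from the FPKM values, 1 FPKM on 1 kb of transcript stood for 1.58 to 1.83 fragments in liver libraries and 2.82 to 3.42 in thymus libraries. For the members the authors' deposited lower bound was 0 for all 72 values, of which 15 were themselves listed at 0. Over the values of all genes 99.998% of lower bounds were 0. The upper bound of the members was 2.14 to 2.96 times the FPKM wherever that was 5 or more. Hepatocyte markers (9 genes) were high in all 4 livers, and none of the 9 passed the strain test in liver described below. The untreated MSM thymus library stood apart: its summed hepatocyte markers reached 2868 FPKM, against 39.4 to 189 in the other 3 thymi, its airway markers (10 genes) 1204 FPKM against 1.62 to 8.94, and its adipocyte markers (6 genes) 481 FPKM against 61.2 to 99.8. Its thymocyte markers (8 genes) summed to 915 FPKM, against 1345 to 1728. Thymus results below are therefore also given without it. Summed Kupffer cell and macrophage markers (7 genes) stood at 39.6 and 58.2 FPKM in injected and untreated MSM livers, against 122 and 237 FPKM in the B6 livers; Csf1r, the receptor of a macrophage growth factor, was the 1 of 7 lower in MSM by the test used below (log2 difference -2.38, limma adjusted p = 0.0405). Their part in the Cyp4 results was not tested. Xist, looked at after the data were seen, stood at 73.0 to 148 FPKM in every library, and Y-linked Ddx3y, Kdm5d, Uty and Eif2s3y were listed at 0 in all 8. These sex-linked genes thus showed the pattern of female tissue in all 8 libraries, in MSM as in B6.

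The 9 members summed to 929 and 1465 FPKM in injected and untreated MSM livers, and to 887 and 1169 FPKM in injected and untreated B6 livers, 0.121% to 0.213% of all FPKM of a liver library. In thymus the sum was 7.02 and 51.7 FPKM in injected and untreated MSM mice, and 3.90 and 4.23 FPKM in B6 mice. The leading member was not the same in each liver. Cyp4v3 led in the injected MSM liver with 352 FPKM and Cyp4a10 in the untreated MSM liver with 639 FPKM. Cyp4a10 led in the injected B6 liver with 247 FPKM and Cyp4a14 in the untreated B6 liver with 473 FPKM. Cyp4b1 (4.57 to 14.2 FPKM) and Cyp4f13 (22.6 to 35.0 FPKM) were low in all 4 livers beside these.

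**Figure D2:**
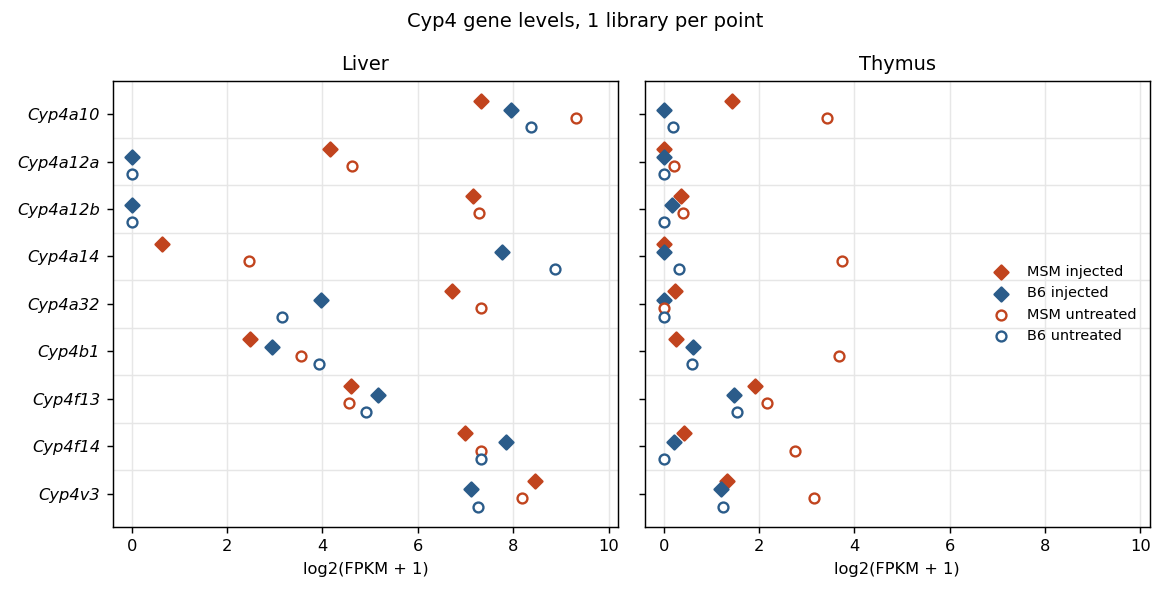
Levels of the 9 Cyp4 members as log2(FPKM + 1), 1 library per point, liver on the left and thymus on the right; diamonds are injected, circles untreated, red MSM and blue B6. Cyp4a12a and Cyp4a12b lie at 0 in both B6 livers, Cyp4a14 is low in both MSM livers, and most thymus points lie near 0 apart from the untreated MSM thymus.

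The strain comparison asked which members differ between MSM and B6 liver. Of the 9 members, 3 were higher in MSM (Cyp4a12a, Cyp4a12b and Cyp4a32) and 1 was lower (Cyp4a14). Among all 10971 genes tested, 0.51% were higher, 0.957% lower and 1.47% called either way. The median difference was 0.15 over the 9 members and 0.01 over all genes (log2). Differences are MSM minus B6 in log2(FPKM + 1), fitted with limma on the 4 livers with treatment as a block, with Benjamini-Hochberg adjustment over all genes and a threshold of 0.05. Each SE measures how far the strain difference varied between injected and untreated mice, moderated across genes, and not the spread among like mice. All tests are two-sided.

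Cyp4a12b had 143 FPKM in the injected and 154 FPKM in the untreated MSM liver, and was listed at 0 in both B6 livers. Cyp4a12a, whose product is the main arachidonic acid omega-hydroxylase of the mouse, had 16.9 and 23.4 FPKM in the same MSM livers and was also listed at 0 in both B6 livers. The strains thus did not overlap for either gene. With 2 mice per strain a lack of overlap, here and below, can also arise by chance, and its share over all genes was not counted. Cyp4a12b differed by 7.22 ± 0.26 (SE; limma adjusted p = 0.00289) and Cyp4a12a by 4.39 ± 0.34 (limma adjusted p = 0.0147). Both sizes depend on the added 1, since a listing at 0 gives no fold. A level of 3 fragments of Cyp4a12a would be 0.752 FPKM in the injected and 0.831 FPKM in the untreated B6 liver. Summed over the near-identical pair, the level was 159.6 and 178 FPKM in injected and untreated MSM livers, and Cyp4a12b held 89.4% and 86.8% of it.

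Cyp4a14, a fatty acid omega-hydroxylase gene strongly induced by PPAR-alpha agonists, ran the other way. It had 0.555 FPKM in the injected and 4.53 FPKM in the untreated MSM liver, which stand for an estimated 1.99 and 18.0 fragments, against 216 and 473 FPKM in the B6 livers. The strains lay far apart: in untreated mice the level was 104-fold lower in MSM, and over both treatments the difference was -6.77 ± 0.27 (limma adjusted p = 0.00348). MSM reads were aligned to a B6-derived genome. Loss of reads from a divergent MSM allele was not tested, for Cyp4a14 or for any other gene given below as lower in MSM.

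Cyp4a32, a near copy of Cyp4a10 that has been little studied, had 104 and 160.0 FPKM in injected and untreated MSM livers and 14.6 and 7.82 FPKM in B6 livers. It was higher in MSM by 3.47 ± 0.39 (limma adjusted p = 0.0366), with no overlap. Cyp4a10, a lauric and arachidonic acid hydroxylase gene, had 159.7 and 639 FPKM in injected and untreated MSM livers, against 247 and 333 FPKM in B6 livers. The strains overlapped, and the difference of 0.15 ± 0.40 did not pass (limma adjusted p = 0.885). Taken as 1 pair, Cyp4a10 and Cyp4a32 summed to 264 FPKM in the injected MSM liver against 262 FPKM in the injected B6 liver, and to 799 FPKM against 341 FPKM in the untreated livers. The sum did not differ between the strains by limma (0.62, limma adjusted p = 0.438), so the call for Cyp4a32 does not extend to the pair. Cyp4a10 held 60.5% and 80.0% of that sum in the injected and untreated MSM livers, and 94.4% and 97.7% in the B6 livers. Their neighbour Cyp4a31 had 1.38 and 1.03 FPKM in MSM livers and 3.17 and 3.52 FPKM in B6 livers, and did not pass (-0.98, limma adjusted p = 0.314).

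The 4 members outside the Cyp4a group did not pass. Cyp4v3, the mouse counterpart of the human gene mutated in Bietti crystalline dystrophy of the eye, had 352 and 290.1 FPKM in injected and untreated MSM livers against 137 and 152 FPKM in B6 livers. Both MSM livers lay above both B6 livers, yet the difference of 1.14 ± 0.21 missed the threshold (limma adjusted p = 0.102). Cyp4f14, whose product hydroxylates leukotriene B4 and vitamin E, had 125 and 160.5 FPKM in MSM livers and 230.0 and 159 FPKM in B6 livers, with overlap (-0.43 ± 0.27). Cyp4f13, its neighbour, had 23.2 and 22.6 FPKM in MSM livers and 35.0 and 29.0 FPKM in B6 livers, with no overlap (-0.46 ± 0.23). Cyp4b1 is best known from the airways, where it activates pneumotoxic furans. It had 4.57 and 10.7 FPKM in MSM livers and 6.66 and 14.2 FPKM in B6 livers, with overlap (-0.42 ± 0.27). The limma adjusted p was 0.411 to 0.515 for these 3 genes. Such a p does not show that the strains were alike.

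**Figure D3:**
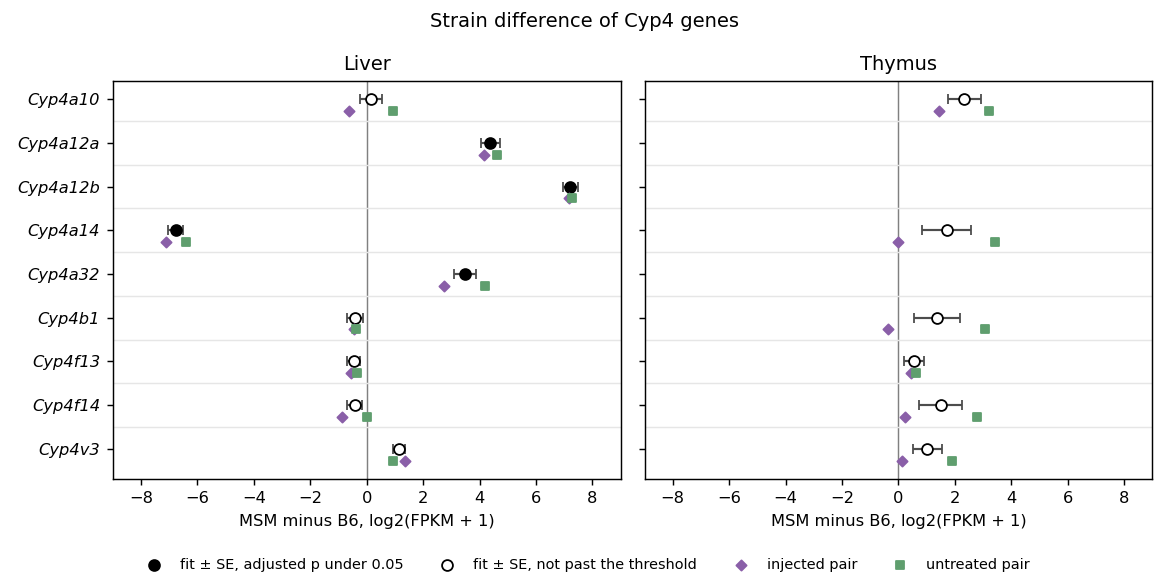
Strain difference, MSM minus B6, of each Cyp4 member in log2(FPKM + 1), liver on the left and thymus on the right. Circles with bars are the fit ± SE, filled where the limma adjusted p is under 0.05; diamonds and squares are the injected and the untreated pair of mice, and genes below the level filter in thymus have no point. In liver Cyp4a12a, Cyp4a12b and Cyp4a32 lie right of 0 and Cyp4a14 left of it in both pairs.

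Leaving out any 1 of the 4 livers, with no treatment block, left 0 members and 0 genes past the limma threshold, with 821 to 1229 genes at an unadjusted p under 0.05. The differences then were 7.17 to 7.28 for Cyp4a12b, 4.16 to 4.61 for Cyp4a12a, -7.69 to -5.86 for Cyp4a14 and 3.06 to 3.88 for Cyp4a32. Cyp4a32 also failed without limma's mean trend (limma adjusted p = 0.102).

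Few other genes of the pathway passed the same test. Of the other Cyp4 genes, 4 were tested and none passed. Among them Cyp4f15, a further leukotriene B4 hydroxylase gene, had 129 and 98.1 FPKM in injected and untreated MSM livers and 53.8 and 46.3 FPKM in B6 livers (1.16, limma adjusted p = 0.0932). None of 4 genes for P450 electron donors passed (median 0.26), and Por, the P450 reductase gene, differed by 0.43. None of 8 genes of the dehydrogenases that carry omega-hydroxy acids to dicarboxylic acids passed, with a median of -0.66. Aldh3a2, the fatty aldehyde dehydrogenase gene, was nearest to the threshold there (-1.39, limma adjusted p = 0.0623). Of 14 genes for peroxisomal oxidation of dicarboxylic acids, 1 was lower in MSM, the peroxisomal fatty acid importer gene Abcd2 (-3.16, limma adjusted p = 0.0194), and Decr2, a peroxisomal dienoyl-CoA reductase gene, had -1.43 (limma adjusted p = 0.0611). The median of these 14 was 0.14.

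Of 28 PPAR-alpha target genes tested, 2 were lower in MSM and none higher, with a median of -0.04. They were the acyl-CoA thioesterase gene Acot3, listed at 0 in both MSM livers with 75.5 and 54.2 FPKM in injected and untreated B6 livers (-6.02, limma adjusted p = 0.00461), and the pantetheinase gene Vnn1 (-3.27, limma adjusted p = 0.0329). Acot1, a cytosolic relative of Acot3, stood at 1.78 (limma adjusted p = 0.0542). Of 18 regulators of Cyp4 genes none passed. Among them Bcl6, a repressor known to act on sex-biased liver genes, had 14.0 and 21.4 FPKM in injected and untreated MSM livers against 2.70 and 2.57 FPKM in B6 livers (2.33, limma adjusted p = 0.0523). Pparg had -2.24 (limma adjusted p = 0.184), a size that depends on the added 1. It was listed at 0 in both MSM livers and had 1.68 and 7.38 FPKM in injected and untreated B6 livers. Of 13 tested genes of eicosanoid metabolism 1 was lower, the arachidonic acid epoxygenase gene Cyp2j6 (-2.66, limma adjusted p = 0.0300), and Ephx2, the soluble epoxide hydrolase gene, had -1.50 (limma adjusted p = 0.0542).

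Sex-biased liver genes other than the members were set beside them, in 4 livers that all had the female pattern of sex-linked genes. Of 10 tested male-biased genes, 4 were higher in MSM and none lower, with a median of 1.97. These were the complement regulator gene Susd4 (5.73, limma adjusted p = 0.00472), the glucuronosyltransferase gene Ugt2b38 (5.58, limma adjusted p = 0.00472), the steroid hydroxylase gene Cyp2d9 (4.28, limma adjusted p = 0.0147) and the urinary protein gene Mup20 (2.22, limma adjusted p = 0.0451, named after its value was seen). Of 17 female-biased genes 8 were lower in MSM and 1 higher, with a median of -2.78. The lower ones included the P450 gene Cyp2b9, with a listing at 0 and 0.690 FPKM in injected and untreated MSM livers against 359 and 435 FPKM in B6 livers (-8.25, limma adjusted p = 0.00204). They also included A1bg, a plasma glycoprotein gene (-6.80, limma adjusted p = 0.00348). The higher one was Hao2, a hydroxy acid oxidase gene, at 2.11 (limma adjusted p = 0.0462, named after its value was seen). Acot3 and Abcd2 are in this list as well as in those above. With each of the 4 livers left out, none of these list genes passed.

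After MegaFasL the comparison within liver has 1 pair of mice per strain and was not tested, since injected and untreated libraries also lie in separately normalized tables. Differences are injected minus untreated in log2(FPKM + 1), with livers centred by their median ratio, and a gene was counted where it was at least 2-fold higher or lower in both strains. Of the 9 members, 2 were lower in both strains, Cyp4a14 and Cyp4b1, and none was higher in both. Over the 10971 genes, 1.24% were lower in both, 1.64% higher in both and 2.88% either. Some markers of other liver cells also differed in the same pairs. Summed endothelial markers (6 genes) stood at 47.0 FPKM in the injected and 86.7 FPKM in the untreated MSM liver, and at 103 and 137 FPKM in the injected and untreated B6 livers. None of these 6 genes was counted as higher or lower in both strains. Summed Kupffer cell and macrophage markers were also lower in both injected livers, with 1 of 7 genes just past 2-fold in both, Emr1 (-1.01 in MSM and -1.14 in B6). Of 6 stellate cell markers 1 was counted as higher in both, the collagen gene Col1a1 (2.35 and 1.48). It was near the floor, at 0.257 and 0 FPKM in untreated MSM and B6 livers and 5.52 and 1.85 FPKM in the injected ones. The median of the 6 stellate markers was 0.45 in MSM and 0.32 in B6. Their part in the Cyp4 differences was not tested.

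Cyp4a14 stood at 0.555 FPKM in the injected MSM liver, against 4.53 FPKM in the untreated one, and at 216 FPKM in the injected B6 liver, against 473 FPKM untreated. The centred differences were -1.84 in MSM and -1.19 in B6, and the MSM value rests on an estimated 1.99 fragments in the injected liver. Cyp4b1 stood at 4.57 FPKM in the injected and 10.7 FPKM in the untreated MSM liver, and at 6.66 FPKM and 14.2 FPKM in the injected and untreated B6 livers (-1.10 and -1.05). Both sizes of Cyp4b1 lay just past the 2-fold line. As deposited, without centring, Cyp4b1 had -0.99 in B6 and Cyp4a14 was the 1 member left, as it was after rescaling to a common sum. With 5 added in place of 1, none was left.

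Cyp4a10 was lower in the injected MSM liver, with 159.7 FPKM against 639 FPKM untreated, 25.0% of that level. In B6 the injected liver held 247 FPKM against 333 FPKM untreated, 74.3%. The centred differences were -2.03 in MSM and -0.49 in B6. Over all genes, 7.03% were at least 2-fold lower in MSM, whatever their difference in B6. Cyp4a12b had -0.14 and Cyp4a12a -0.48 in MSM, and both were listed at 0 in both B6 livers. Cyp4f13 had 0.00 in MSM and 0.20 in B6. Cyp4a32, Cyp4f14 and Cyp4v3 had opposite signs in the 2 strains: -0.64 in MSM and 0.76 in B6 for Cyp4a32, -0.39 and 0.46 for Cyp4f14, and 0.24 and -0.21 for Cyp4v3. None of these reached 2-fold.

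Among the pathway lists, Por was 1 of 4 electron donor genes and the one counted as higher in both strains, with 306 FPKM in the injected and 55.3 FPKM in the untreated MSM liver and 224 and 41.3 FPKM in the B6 livers (2.42 in MSM and 2.35 in B6). Ppara, the gene of the fatty acid sensor itself, was also higher in both (1.61 and 1.12), as was Cux2, a regulator of sex-biased liver genes (1.62 and 2.91). They were 2 of 18 regulators. Cux2 was near the floor in untreated livers, at 0.235 FPKM in MSM and 1.36 FPKM in B6, against 2.85 and 17.4 FPKM in the injected ones. Of 14 genes for peroxisomal oxidation, 2 were lower in both strains, the thiolase gene Acaa1b (-1.20 and -1.25) and the carnitine octanoyltransferase gene Crot (-1.37 and -1.65). Of 28 PPAR-alpha target genes, 2 were lower in both, Acaa1b again and Retsat (-1.16 and -1.41), and none was higher. Of 13 eicosanoid genes 1 was lower in both, Alox5ap, the partner of 5-lipoxygenase, which was listed at 0 in both injected livers against 3.55 FPKM in the untreated MSM and 6.54 FPKM in the untreated B6 liver. None of the 4 other Cyp4 genes and none of the 8 dehydrogenase genes was counted.

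**Figure D4:**
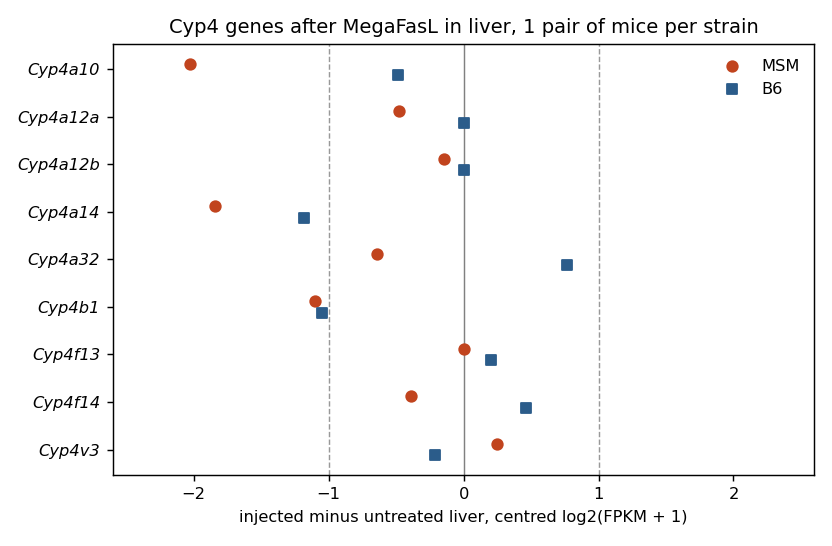
Injected minus untreated liver for each Cyp4 member, in centred log2(FPKM + 1), with 1 pair of mice per strain; circles are MSM, squares B6, and dashed lines mark 2-fold. Cyp4a14 (-1.84 and -1.19) and Cyp4b1 (-1.10 and -1.05) lie past the lower line in both strains, and Cyp4a10 in MSM alone (-2.03).

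In the comparison of each liver with the thymus of its mouse, fitted with mouse as a block, 6 of the 9 members were higher in liver. Of 12880 genes, 28.6% were higher in liver, 32.1% lower and 60.7% either. In such bulk samples fewer cells of a type and less RNA per cell cannot be told apart. The median over the members was 3.92, and over all genes -0.13, which rescaling to a common sum moved to -0.98. Cyp4a10 was higher in liver by 6.98 ± 0.46, Cyp4f14 by 6.52 ± 0.51, Cyp4v3 by 6.02 ± 0.34 and Cyp4a32 by 5.23 ± 0.72 (limma adjusted p = 7.88e-05 to 0.00137). Cyp4f13 was the member with the most even thymus level, 1.77 to 3.52 FPKM in the 4 thymi, and was higher in liver by 3.03 ± 0.27 (limma adjusted p = 0.000251).

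Cyp4b1 was higher in liver by 1.93 ± 0.54 (limma adjusted p = 0.0224). It stood at 0.192 and 11.9 FPKM in the thymi of injected and untreated MSM mice and at 0.533 and 0.521 FPKM in those of B6 mice. Its call was lost on rescaling to a common sum (1.24, limma adjusted p = 0.113) and without the injected MSM, the injected B6 or the untreated B6 mouse (1.47 to 1.84, limma adjusted p = 0.0755 to 0.0777). The other 5 calls remained without each mouse. Cyp4a12a (2.14 ± 0.89), Cyp4a12b (3.37 ± 1.41) and Cyp4a14 (3.92 ± 1.75), each high in the livers of a single strain, did not pass, with a limma adjusted p of 0.0788 to 0.0944. Cyp4a12b passed without the injected B6 mouse (4.56, limma adjusted p = 0.0479) and Cyp4a14 without the untreated MSM mouse (5.65, limma adjusted p = 0.0233).

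Within thymus 6 members passed the level filter (1 FPKM on average in these 4 libraries), and Cyp4a12a, Cyp4a12b and Cyp4a32 did not. None of the 6 differed between the strains by limma, against 0.379% of 11610 genes higher in MSM, 0.594% lower and 0.973% either. Of the 6, Cyp4a10 alone had an unadjusted p under 0.05 (2.33, limma adjusted p = 0.186). Much of what was measured lay in the untreated MSM thymus. Without the injected MSM thymus that library stood alone for MSM, so the spread came from the 2 B6 thymi and the lone library was assumed to vary like them. In that fit the differences of Cyp4a10, Cyp4a14, Cyp4b1 and Cyp4f14 were 2.66 to 3.58, and for that reason its calls are not counted. Without the untreated MSM thymus only Cyp4f13 and Cyp4v3 still passed the level filter, and neither differed by limma.

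The members in the untreated MSM thymus were set against the livers of untreated mice. The 9 hepatocyte markers stood there at 1.33% to 5.11% of their level in the MSM liver, with a median of 2.79%, and at 1.87% to 3.57% of their level in the B6 liver, with a median of 2.78%. Cyp4a10 (1.53% of the MSM and 2.93% of the B6 liver level), Cyp4f14 (3.61% and 3.64%) and Cyp4v3 (2.73% and 5.20%) lay near those ranges. Cyp4a14 had 12.4 FPKM in that thymus, an estimated 80.0 fragments, which is 272% of its level in the liver of the same mouse and 2.61% of its level in the untreated B6 liver. Cyp4a12b was at 0.210% and Cyp4a12a at 0.681% of their MSM liver levels. Cyp4a32 was listed at 0. Cyp4b1 stood at 111% of the MSM and 83.5% of the B6 liver level, in the library where airway markers summed to 1204 FPKM. Other genes that had passed the strain test in liver were set beside these. Of 18 high in B6 and low in MSM livers, 16 reached 1 FPKM in this library. Of 4 high in MSM and low in B6 livers, 1 did so in this library. Whether it carries RNA of a B6 sample was not tested, and its Cyp4 values, with the strain values that use them, are given as measured and not as levels of thymus.

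**Figure D5:**
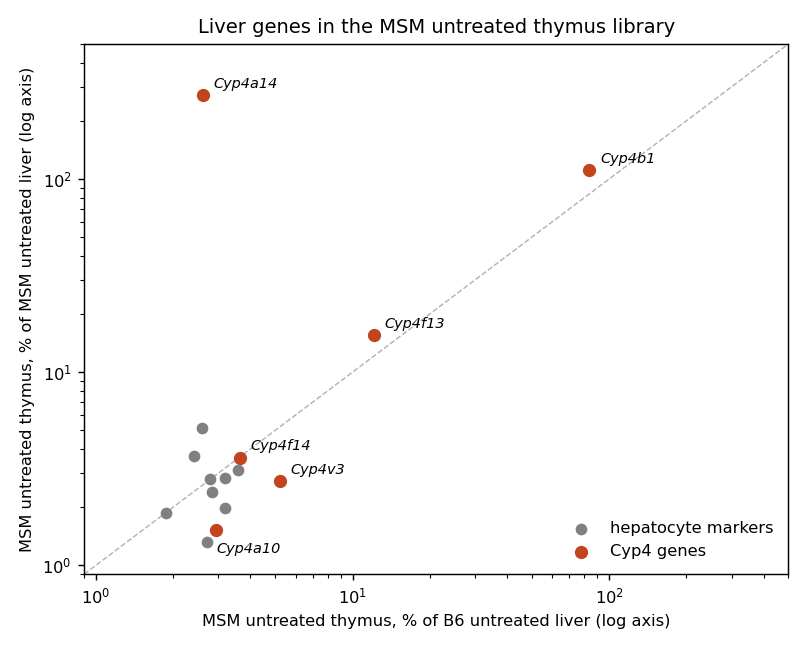
Level in the untreated MSM thymus library as a percentage of the untreated B6 liver (horizontal, log axis) and of the untreated MSM liver (vertical, log axis), for 6 Cyp4 members and 9 hepatocyte markers; the dashed line marks equal percentages. Cyp4a14 stands at 272% of the MSM liver but at 2.61% of the B6 liver, within the range of the hepatocyte markers on the horizontal axis, and Cyp4b1 stands at 111% and 83.5%.

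Whether the strain difference itself differed between the tissues was fitted on 1 ratio per mouse, liver over thymus. For 3 of the 9 members it did, against 0.435% of 12880 genes higher, 0.652% lower and 1.09% either: Cyp4a12b (6.93 ± 0.55, limma adjusted p = 0.00614), Cyp4a12a (4.28 ± 0.44, limma adjusted p = 0.0112) and Cyp4a14 (-8.48 ± 0.81, limma adjusted p = 0.00824). Cyp4a12a and Cyp4a12b reached at most 0.160 and 0.323 FPKM in any thymus and entered this fit through the MSM livers, so their values restate the liver differences of 4.39 and 7.22. For Cyp4a14 the untreated MSM thymus held 12.4 FPKM and the other 3 thymi at most 0.253 FPKM. All 3 calls were lost with 0.1 added (limma adjusted p = 0.160 to 0.208), where no gene of all 12880 passed. That of Cyp4a12a was also lost without limma's trend (limma adjusted p = 0.0506), while Cyp4a32 passed with 5 added (3.06, limma adjusted p = 0.0337). Without any 1 of the 4 mice, with the strain term alone, none of the 3 passed. The sizes then lay between 6.83 and 7.02 for Cyp4a12b, 4.16 and 4.40 for Cyp4a12a, and -9.43 and -7.53 for Cyp4a14. For the injection, none of the 9 members differed between the tissues by limma, none had an unadjusted p under 0.05, and 0.0543% of genes passed.

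The genes most like 4 of the members were taken by the distance of log2(FPKM + 1) over the 8 libraries, among 10308 genes. Nearest to Cyp4a12a were Ceacam2 (distance 0.95), Cdhr2 (1.00) and Krt23 (1.16). Nearest to Cyp4a14 were Kng2 (1.94), Cyp2b9 (1.99) and Sult2a2 (2.07), all low in MSM livers and high in B6 livers. Among the nearest to Cyp4f14 were Glyat (0.69) and F12 (0.72), both above 100 FPKM in every liver. Nearest to Cyp4b1 were Cdh5 (1.82), Sdpr (1.84) and Sat2 (2.04). These distances describe 8 libraries that include the untreated MSM thymus, and a pattern shared with a member follows from choosing genes by distance.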

How the data were processed

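RNA sequencing of 8 libraries (liver and thymus of 4 mice) was used. Per the submitters' processing notes, reads were aligned with TopHat to mm10 and levels came from Cuffdiff 2.2.1. The annotation and run settings are not given in the sources used here. The authors deposited FPKM values with their bounds in 2 tables, injected and untreated, normalized separately, and no counts. The labels' protocols name polyA RNA and a TruSeq kit. All members, gene lists, tests and alternatives were chosen with earlier results of these data known.

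Levels were compared as log2(FPKM + 1) over genes that averaged 1 FPKM or more (in either tissue, for comparisons of tissues), with limma 3.58.1 and its mean trend in R 4.3.3. P-values were adjusted over all genes tested. The added 1 understates the change of low genes. The strain fits and the per-mouse ratio fits have 1 residual degree of freedom, and the liver minus thymus fit has 3. The code was tested on simulated data. Fragments were estimated from the FPKM of genes with 1 transcript: 69.3% to 74.1% of low values became whole within 0.1, against 20% by chance, so no count test was run, and these depths are rough and cover counting error only. For Cyp4a32 no fragments are given. Named genes were the members, at most the 4 largest differences of each list, and the 3 nearest genes of 4 members; any gene outside this is marked, and 1 gene that the rule takes is not reported here. Coding sequences are from GENCODE M21, aligned with Biopython 1.88.

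Alternatives were added values of 0.1 and 5, no filter or 5 FPKM, rescaling to a common sum, summing Cyp4a12a with Cyp4a12b and Cyp4a10 with Cyp4a32, median-ratio centring or none, limma's robust moderation or no trend, fits with fewer or more terms, and omission of single libraries or mice.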

Additional observations from a re-analysis of the deposited data

Results flagged for a closer look

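The strain difference (MSM minus B6) of 3 members differed between liver and thymus by the test of that difference, in log2(FPKM + 1): 4.28 for Cyp4a12a, 6.93 for Cyp4a12b and -8.48 for Cyp4a14. Cyp4a12a and Cyp4a12b reached at most 0.160 and 0.323 FPKM in any thymus, so their values restate the liver differences of 4.39 and 7.22. For Cyp4a14 the thymus side rests on the untreated MSM thymus, with 12.4 FPKM, while the injected MSM thymus was listed at 0 and the thymi of injected and untreated B6 mice were at 0 and 0.253 FPKM. After the injection 3 members had opposite signs in the livers of the 2 strains, and the difference between MSM and B6 was -1.41 for Cyp4a32, -0.85 for Cyp4f14 and 0.46 for Cyp4v3. With 1 pair of mice per strain these differences were not tested.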

How the results depend on the processing

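In liver 4 members differed between the strains. Summing near-identical pairs gave 2 of 7 (the Cyp4a12 sum, higher, and Cyp4a14, lower), since the Cyp4a12 pair then counts once and the Cyp4a10 and Cyp4a32 sum did not pass. Limma without trend gave 3. Leaving out a liver gave 0 each time, and the cause was not tested beyond the fewer samples. No member passed a filter of 5 FPKM in thymus. With a thymus left out a strain rests on a lone library, so no count of members is given for it. The 3 members whose strain difference differed between tissues became 0 with 0.1 added, where no gene of all 12880 passed, for a cause that was not tested. Without each mouse a strain rests on a lone mouse, and the sizes are given above. The 6 members higher in liver than thymus became 5 to 7 without each mouse. The 2 members lower after injection became 0 with 5 added, 1 after rescaling and 1 without centring. Rescaling moved the median of all genes in the liver strain comparison from 0.01 to -0.14. Directions reversed for Cyp4a10 (-0.021 on rescaling, -0.84 to 1.15 with a liver left out, with -0.059 among them), Cyp4b1 (-0.95 to 0.12, with 0.078) and Por (-0.79 to 1.66, with -0.77), none of which passed in any setting. Of 1026 alternative values, 865 kept direction and side of the threshold. Liver and thymus were paired by mouse, and leaving out the mouse or treatment block changed no count of members called. Depth limits the low values: Cyp4a14 in the injected MSM liver rests on an estimated 1.99 fragments.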

Other observations

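Genes other than the members with a strain pattern in liver were looked for in the untreated MSM thymus, after the data were seen. All of them had passed the strain test in liver. They had at least 40 FPKM in both livers of a strain, at most 8 FPKM in those of the other and at most 2 FPKM in the other 3 thymi. Of 4 genes high in MSM liver, 1 reached 1 FPKM in that library. It was Susd4, with 1.55 FPKM, against 1.40 and 1.62 FPKM in the injected MSM and B6 thymi. The median of the 4 in that library was 0.0575% of the untreated MSM liver level. Of 18 genes high in B6 liver, 16 reached 1 FPKM, with a median of 3.02% of the untreated B6 liver level. Among them were Cyp2b9, with 12.1 FPKM, and A1bg, with 5.24 FPKM, against 0.690 and 0.713 FPKM in the untreated MSM liver. Kidney tubule markers (4 genes) were listed at 0 in that library, and Scgb1a1, a club cell gene of the airways, had 400.05 FPKM there and was listed at 0 in the other 3 thymi. The B6 untreated liver held thymocyte markers at 30.1 FPKM, against 3.95 to 5.29 FPKM in the other livers.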
